A study of Mus musculus with 4 samples.

Results

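Spermatids build the sperm head, acrosome and tail with proteins made in few other cells, and 36 genes for such proteins were followed here by their DNA methylation in cultured mouse spermatogonial stem cells. The genes were taken by symbol for their textbook roles, with earlier results of these data known, out of 21627 protein-coding genes of chromosomes 1 to 19 and X. They were sorted by role into 5 chromatin genes, 7 acrosome and egg-binding genes, 11 tail and sheath genes, 5 channel genes, 4 kinase genes and 4 others. Germline stem (GS) cells are spermatogonial stem cells from testis that multiply in culture. The 60M-GS cells had been cultured for about 60 months and the 5M-GS cells for about 5 months. Cells of either age were wild type in the labels' genotype field and came from Green mice, a C57BL/6 stock with the transgene Tg14(act-EGFP)OsbY01, on a DBA/2 background. Their medium held human FGF2, rat GDNF and fetal bovine serum. DNA methylation was read by whole-genome bisulfite sequencing of libraries made by post-bisulfite adaptor tagging, which attaches adaptors after bisulfite treatment. Each age had 2 replicates, pooled in 1 deposited table. Every test below therefore compares the methylation calls of 2 pooled libraries and not the culture ages, and 95% intervals cover counting error only. Whether the replicates came from separate cultures is not given in the sources used here.

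As background, DNA methylation is a methyl group on the cytosine of a CpG, a cytosine followed by guanine. Promoters rich in CpGs are mostly unmethylated in all tissues, while CpG-poor promoters of genes used in a single tissue are often methylated where the gene is silent. In spermiogenesis, the maturing of round spermatids into sperm, transition proteins and then protamines replace most histones, and the transcription factor CREM switches on many of the genes involved. Spermatogonial stem cells stand many divisions before that stage. RNA was not part of these data, so nothing below gives the expression of any gene.

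In all, 471693518 calls on 19341319 CpGs were listed for 60M-GS (median 22 per CpG), and 468121185 calls on 19371838 CpGs for 5M-GS (median 21). A region was given the share of methylated calls, in percent, summed over CpGs that had 5 or more calls in each table. On most chromosomes 60M-GS had about 1.03 times the 5M-GS calls per CpG. The ratio was 0.833 on chromosome 15, which carries Odf1 and Acr, and 0.918 on chromosome 16, which carries Prm1, Prm2, Prm3, Tnp2, Tssk1, Tssk2 and Tekt5. On chromosome 16 single genes departed from this mean. The spans of Prm1 (759 calls in 60M-GS against 646 in 5M-GS), Prm2, Prm3, Tnp2 and Tekt5 held more calls in 60M-GS. Those of Tssk1 (1075 calls in 60M-GS against 1263 in 5M-GS) and Tssk2 held fewer. The part of this depth difference in the results was not tested. Methylation cannot show which cells were present, but the 5′ ends of some germ cell genes were low, at 7.66% in 60M-GS against 8.99% in 5M-GS for the RNA helicase gene Ddx4 and 1.75% in 60M-GS against 2.24% in 5M-GS for the RNA-binding protein gene Dazl. Among spermatogonial genes, Gfra1, Ret, Etv5, Id4, Lhx1 and Zbtb16 each had a low end. These ends ranged from 0.254% (Etv5) to 4.08% (Id4) in 60M-GS and from 0.305% (Etv5) to 2.38% (Id4) in 5M-GS. The spermatogonial gene Nanos2, another RNA-binding protein, differed, with a 5′ end at 64.6% in 60M-GS against 70.7% in 5M-GS. The low-coordinate ends of the Sertoli cell gene Sox9 (0.585% for 60M-GS and 0.312% for 5M-GS) and of the fibroblast collagen gene Col1a1 (0.838% in 60M-GS against 0.352% in 5M-GS) were low too, so these levels do not tell the cell types apart.

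The base sequences at the starts show how differently these genes are built. Each stretch runs from 250 bases before to 50 bases after an annotated start, is taken from RefSeq on build GRCm38.p6 (the same coordinates as mm10), and has its CpGs in capitals. The promoter table held such windows for 33 of the 36 genes. Acr, Catsper1 and Odf1 had none. The first 4 stretches belong to the proteins that repackage sperm DNA, with Tnp1 at chr1:73015850-73016149 (minus strand), Tnp2 at chr16:10788606-10788905 (minus strand), Prm1 at chr16:10796774-10797073 (minus strand) and Prm2 at chr16:10792056-10792355 (minus strand).
Tnp1: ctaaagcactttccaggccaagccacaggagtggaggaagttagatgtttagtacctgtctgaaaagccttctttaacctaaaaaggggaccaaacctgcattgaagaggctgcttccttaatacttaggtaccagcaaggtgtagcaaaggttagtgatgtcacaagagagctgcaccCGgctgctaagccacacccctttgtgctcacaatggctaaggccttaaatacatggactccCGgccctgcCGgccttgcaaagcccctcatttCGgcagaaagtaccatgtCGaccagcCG
Tnp2: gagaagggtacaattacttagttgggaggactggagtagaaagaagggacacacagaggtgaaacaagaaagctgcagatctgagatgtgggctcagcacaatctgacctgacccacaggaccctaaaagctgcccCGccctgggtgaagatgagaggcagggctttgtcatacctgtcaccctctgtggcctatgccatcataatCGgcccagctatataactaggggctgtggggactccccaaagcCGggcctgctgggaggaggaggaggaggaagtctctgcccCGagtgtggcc
Prm1: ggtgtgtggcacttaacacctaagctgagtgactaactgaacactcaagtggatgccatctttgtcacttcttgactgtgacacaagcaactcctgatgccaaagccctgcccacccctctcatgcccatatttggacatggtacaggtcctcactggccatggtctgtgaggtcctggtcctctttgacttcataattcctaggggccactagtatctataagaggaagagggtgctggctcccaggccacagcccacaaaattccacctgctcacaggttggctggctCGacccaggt
Prm2: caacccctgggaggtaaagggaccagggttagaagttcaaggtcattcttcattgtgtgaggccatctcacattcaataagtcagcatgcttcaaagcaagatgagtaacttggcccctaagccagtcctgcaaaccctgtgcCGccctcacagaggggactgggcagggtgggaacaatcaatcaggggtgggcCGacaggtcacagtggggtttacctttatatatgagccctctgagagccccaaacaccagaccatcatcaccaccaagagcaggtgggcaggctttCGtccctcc
The number of CpGs in these windows was 6 for Tnp1, 4 for Tnp2, 1 for Prm1 and 3 for Prm2.

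The next 4 show starts of other roles, with Izumo1 at chr7:45621561-45621860 (plus strand), Tekt3 at chr11:63061409-63061708 (plus strand), Tssk2 at chr16:17898387-17898686 (plus strand) and Tssk3 at chr4:129490721-129491020 (minus strand). Izumo1 is shown for an unmethylated start, Tekt3 for an uneven one, and Tssk2 and Tssk3 as relatives in opposite states.
Izumo1: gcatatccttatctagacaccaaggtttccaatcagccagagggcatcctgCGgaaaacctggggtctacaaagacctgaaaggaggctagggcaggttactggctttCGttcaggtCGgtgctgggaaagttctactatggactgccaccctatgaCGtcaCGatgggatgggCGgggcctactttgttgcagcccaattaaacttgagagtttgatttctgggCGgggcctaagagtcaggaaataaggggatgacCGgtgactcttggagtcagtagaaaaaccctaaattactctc
Tekt3: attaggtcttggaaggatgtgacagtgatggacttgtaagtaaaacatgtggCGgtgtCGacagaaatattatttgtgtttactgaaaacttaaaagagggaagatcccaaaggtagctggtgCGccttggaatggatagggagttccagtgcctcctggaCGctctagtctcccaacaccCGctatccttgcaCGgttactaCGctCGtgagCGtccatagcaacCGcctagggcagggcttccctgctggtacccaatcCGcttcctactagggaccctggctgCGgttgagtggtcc
Tssk2: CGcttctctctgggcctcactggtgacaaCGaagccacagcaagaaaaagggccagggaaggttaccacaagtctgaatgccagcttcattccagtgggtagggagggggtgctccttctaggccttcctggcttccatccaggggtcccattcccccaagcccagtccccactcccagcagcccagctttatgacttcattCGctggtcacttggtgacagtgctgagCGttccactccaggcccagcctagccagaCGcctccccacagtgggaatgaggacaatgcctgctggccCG
Tssk3: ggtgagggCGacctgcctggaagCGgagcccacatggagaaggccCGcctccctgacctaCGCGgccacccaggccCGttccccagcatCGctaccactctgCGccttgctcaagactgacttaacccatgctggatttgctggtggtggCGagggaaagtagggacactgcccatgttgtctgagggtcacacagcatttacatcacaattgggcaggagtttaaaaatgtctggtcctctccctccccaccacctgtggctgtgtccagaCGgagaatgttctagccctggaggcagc
They held 8 CpGs in Izumo1, 12 in Tekt3, 6 in Tssk2 and 10 in Tssk3.

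Most ends of the sperm genes had nearly the same level in 60M-GS and 5M-GS. Each gene end was taken as a window of 1 kb on either side of the outermost annotated base, and 71 of 72 ends had the 4 CpGs needed for a test. An end was called gained or lost where Fisher's exact test (two-sided, adjusted by Benjamini and Hochberg's method over the 40717 tested ends of protein-coding genes) gave an adjusted p under 0.05 and the levels differed by at least 20 points. By that rule 4 ends were gained in 60M-GS, where 3.81% of all protein-coding ends were, and 0 were lost, where 0.219% of all were. The gained ends were the 5′ and 3′ ends of Tnp1, 1 end of Odf1 and the 3′ end of Hspa1l, so 3 of 36 genes were involved and the share was near that of all genes. The median difference was 0.103 points over the sperm genes' ends and 0.125 points over all ends. Of the 71 ends, 54 (76.1%) differed by under 5 points, against 79.9% of all.

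**Figure D1:**
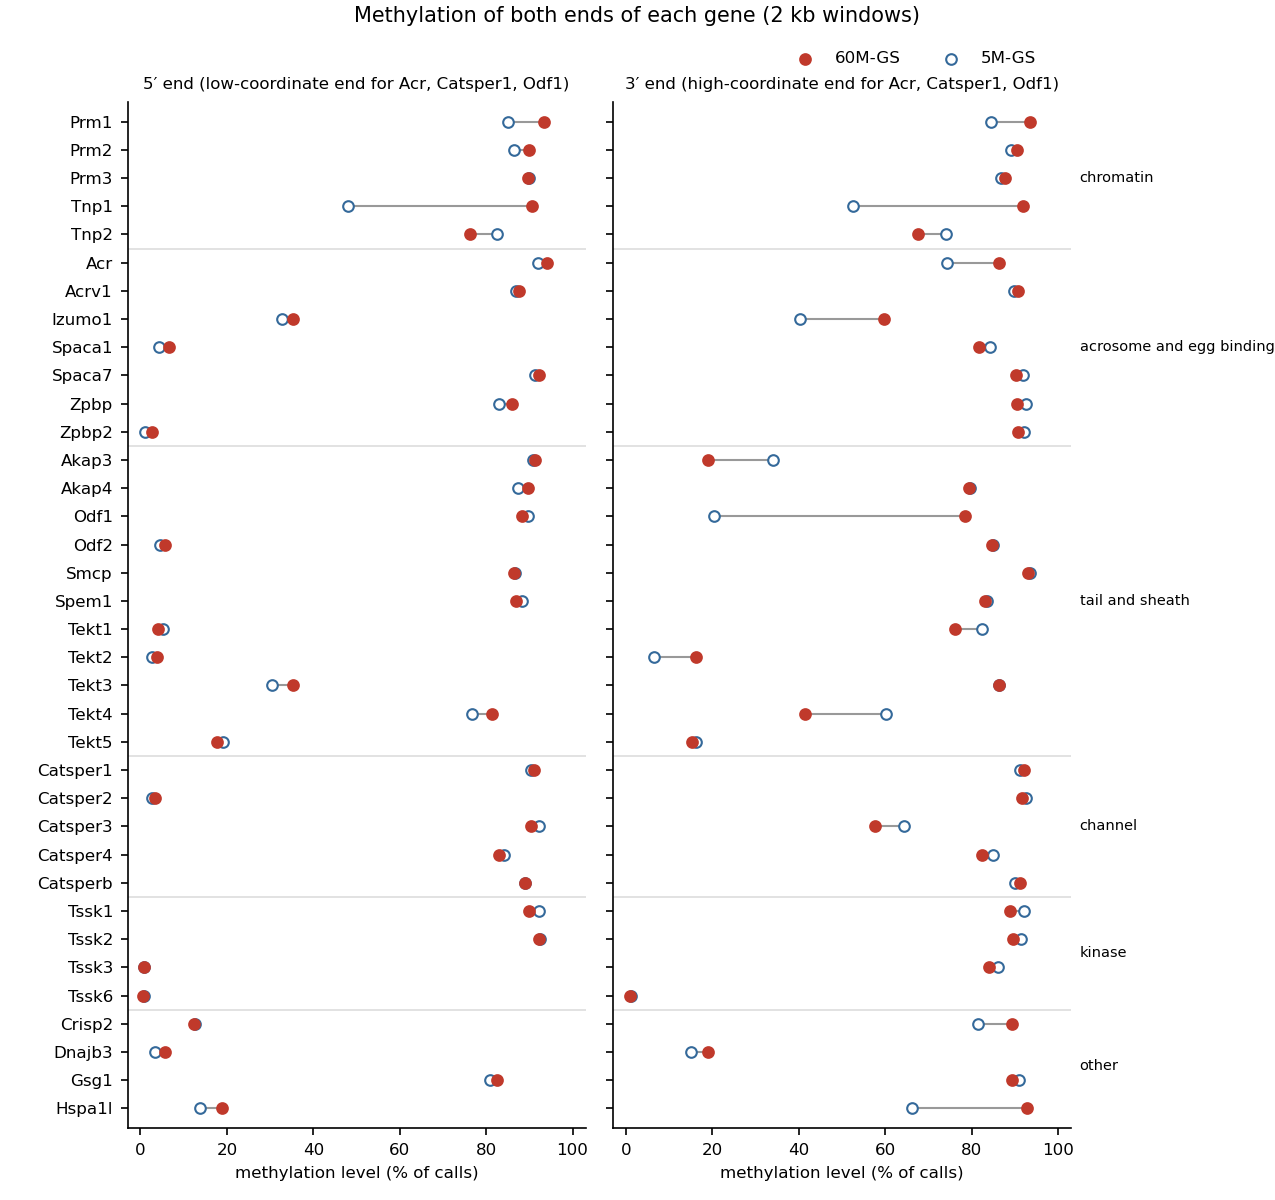
Methylation level (percent of calls, horizontal axis) of the 5′ end window (left) and 3′ end window (right) of 33 genes, and of the low-coordinate end (left) and high-coordinate end (right) of Acr, Catsper1 and Odf1, which had no strand in the table used, grouped by role, with filled points for 60M-GS and open points for 5M-GS. Long lines between points are seen for Tnp1 (90.7% in 60M-GS, against 48.0% in 5M-GS at the 5′ end), Odf1 (78.4% in 60M-GS against 20.3% in 5M-GS at the high-coordinate end) and Hspa1l (92.8% for 60M-GS and 66.2% for 5M-GS at the 3′ end), while most pairs of points touch. The 5′ end of Acrv1 had too few CpGs for a test.

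The starting state of the ends was mixed and followed their CpG content in part. Among the 32 tested 5′ ends of the sperm genes, 15 (46.9%) were above 80% in both 60M-GS and 5M-GS, against 19.2% of all protein-coding 5′ ends, and 12 (37.5%) were below 20% in both, against 62.8% of all. Of the 5′ ends, 1 was gained (3.84% of all 5′ ends were), and of 33 tested 3′ ends, 2 were gained (3.71% of all 3′ ends were). Ends were sorted by the CpGs listed in their window into CpG-poor (under 30), CpG-intermediate (30 to 59) and CpG-dense (60 or more). All 10 CpG-dense ends were below 20% in both libraries, as were 96.8% of all CpG-dense protein-coding ends. None of the 10 was gained, with a background of 0.503%. None of 31 CpG-poor ends was gained (background 3.79%), and 25 of them (80.6%) were above 80% in both, against 69.4% of all CpG-poor ends. The 30 CpG-intermediate ends were split. Of these, 14 (46.7%) were above 80% and 6 (20%) below 20% in both, against 34.2% and 32.5% of all such ends. Among CpG-poor 5′ ends, 81.8% of the sperm genes' were above 80% in both, against 56.9% of all. Among CpG-intermediate 5′ ends the shares were 42.9% and 9.89%. No test was made of these shares. All 4 gained ends were among the 30 CpG-intermediate ones, the class with the highest background (8.46%). They were also all among the 14 ends that stood between 20% and 80% in 5M-GS, a range in which 17% of all protein-coding ends were gained. The 41 tested ends above 80% in 5M-GS could not be called gained, as they cannot rise by 20 points.

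**Figure D2:**
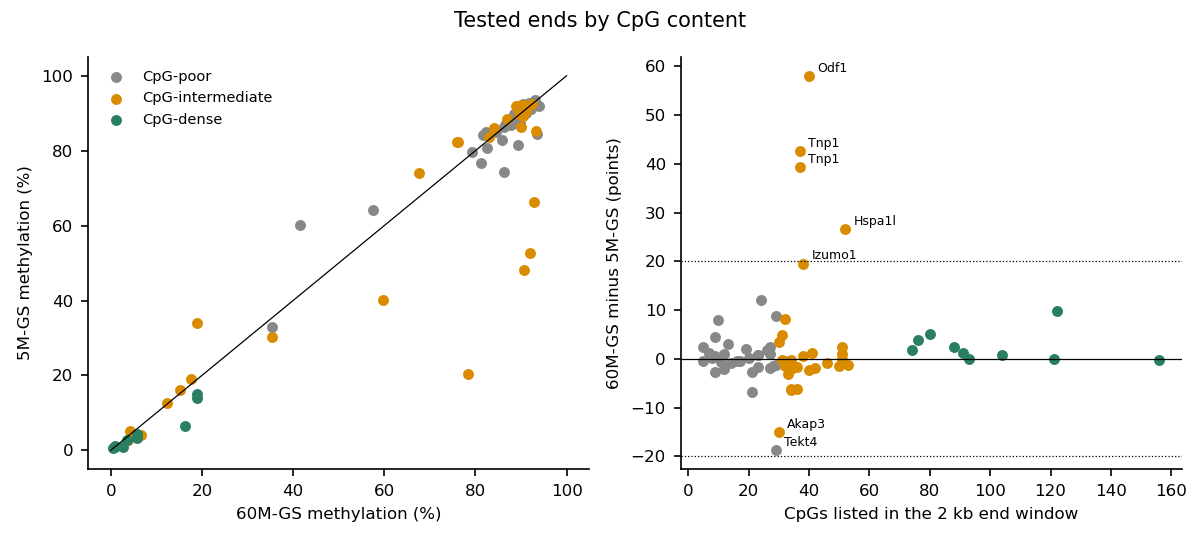
The left panel sets the level of each tested end in 60M-GS (horizontal axis, %) against that in 5M-GS (vertical axis, %), with a line of equality and colours for CpG-poor, CpG-intermediate and CpG-dense windows. The right panel plots the 60M-GS minus 5M-GS difference (points) against the number of CpGs listed in the 2 kb window, with dotted lines at 20 points. The 4 gained ends (Odf1, 2 of Tnp1, Hspa1l) lie above the upper dotted line in the CpG-intermediate class, and Izumo1 at 19.5 points lies just under it.

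Tnp1 had the clearest change at an annotated start. Tnp1 encodes transition protein 1, which takes the place of histones before protamines do. In the 300-base window printed above, 92.5% of 186 calls were methylated in 60M-GS, against 13.9% of 180 calls in 5M-GS, 78.6 points apart (95% CI 71.1 to 83.8). All 6 CpGs were higher in 60M-GS. Counting the start base as 1, the CpG at -71 was 81.0% methylated in 60M-GS, against 11.8% in 5M-GS, and the CpG at -10 was 100% in 60M-GS against 10.0% in 5M-GS. The CpG at -1 was 92.0% methylated in 60M-GS, against 6.67% in 5M-GS. Inside the transcribed stretch, the CpG at 23 had 89.2% in 60M-GS against 22.2% in 5M-GS, the CpG at 41 had 89.7% for 60M-GS and 11.8% for 5M-GS, and the CpG at 49 had 100% in 60M-GS against 18.2% in 5M-GS. The smallest of these 6 differences was 67.0 points. Among all protein-coding start windows of this kind, 2.88% were gained and 0.567% were lost. Of 27 tested start windows of the sperm genes, that of Tnp1 was the only gained one and 0 were lost.

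The gain at Tnp1 was local. In steps of 500 bp along the gene, the stretch from 500 bp before to the start was at 92.9% in 60M-GS, against 39.5% in 5M-GS, and the first 500 bp of the gene were at 90.0% in 60M-GS against 27.6% in 5M-GS. The next 500 bp were at 95.4% for 60M-GS and 82.4% for 5M-GS. From 1000 to 1500 bp the levels were 93.2% in 60M-GS against 96.3% in 5M-GS, and before the start, from 1000 to 500 bp, 78.3% in 60M-GS against 81.9% in 5M-GS, so the neighbouring DNA was nearly alike in the 2 libraries. Over the 5′ end window the levels were 90.7% in 60M-GS, against 48.0% in 5M-GS, 42.6 points apart (95% CI 39.0 to 46.1, adjusted p = 5.39e-103 by Fisher's exact test). The 3′ end window stood at 91.9% for 60M-GS and 52.6% for 5M-GS, but it shares 1176 bp with the 5′ window and is no separate observation. The whole span (chr1:73015074-73015899) was at 91.5% in 60M-GS, against 40.9% in 5M-GS. A long noncoding RNA, 1700027A15Rik, is annotated on the other strand with its start 137 bp from that of Tnp1, so the stretch belongs to the starts of both. When the calls of a window were divided by its number of CpGs before the test, as if all its CpGs had been read on the same molecules, the 5′ end had an adjusted p of 0.122 and was no longer called.

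The other packaging genes began from a methylated state. Protamines are the small arginine-rich proteins that finally compact sperm DNA, and Prm1, Prm2, Prm3 and Tnp2 lie next to each other on chromosome 16. Their end windows ranged from 67.7% to 93.4% in 60M-GS and from 74.0% to 89.9% in 5M-GS, and none was called. Prm1 was somewhat higher in 60M-GS across its span, at 93.9% of 759 calls against 83.3% of 646 calls in 5M-GS, 10.7 points apart (95% CI 7.36 to 14.1, adjusted p = 1.51e-09 by Fisher's exact test), below the 20 points required. All 23 CpGs of that span that 10 or more calls covered in each library were higher in 60M-GS. At its start the single CpG was at 83.3% of 30 calls in 60M-GS, against 70.0% of 40 calls in 5M-GS. The 3 CpGs of the Prm2 start were together at 86.7% in 60M-GS, against 76.5% in 5M-GS, a difference whose interval (-2.06 to 21.9 points) includes 0. Tnp2, transition protein 2, went the other way by a small amount, with a span at 78.4% in 60M-GS, against 86.2% in 5M-GS, while its start window was at 85.5% in 60M-GS against 84.2% in 5M-GS. Prm2, Prm3 and Tnp2 windows overlap in part, so their values are not independent of each other.

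Along the cluster the methylated state was shared by both libraries, and so was the drop beyond Tnp2. From 3000 bp before the start of Prm1 to 9000 bp beyond it, every 500 bp step with at least 4 CpGs was above 75% in both libraries. A step with 3 CpGs between Prm1 and Prm2 was at 54.0% in 60M-GS against 52.7% in 5M-GS, and a step with 1 CpG between Prm3 and Tnp2 rested on 7 calls in either library. Beyond Tnp2 the level dropped in both, to 22.7% in 60M-GS, against 25.4% in 5M-GS at 9000 to 9500 bp, and to 0.389% for 60M-GS and 0.817% for 5M-GS at 10500 to 11000 bp. The largest difference among steps with at least 4 CpGs was that of the Prm1 body. Tnp1, on chromosome 1, was the packaging gene with a mostly unmethylated start in 5M-GS, and the only one of the 5 that was gained. An end above 80% in 5M-GS cannot rise by 20 points. Of the other packaging genes' end windows, all but the 3′ end of Tnp2 (74.0%) stood above 80% there, so the rule could not call them gained.

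**Figure D3:**
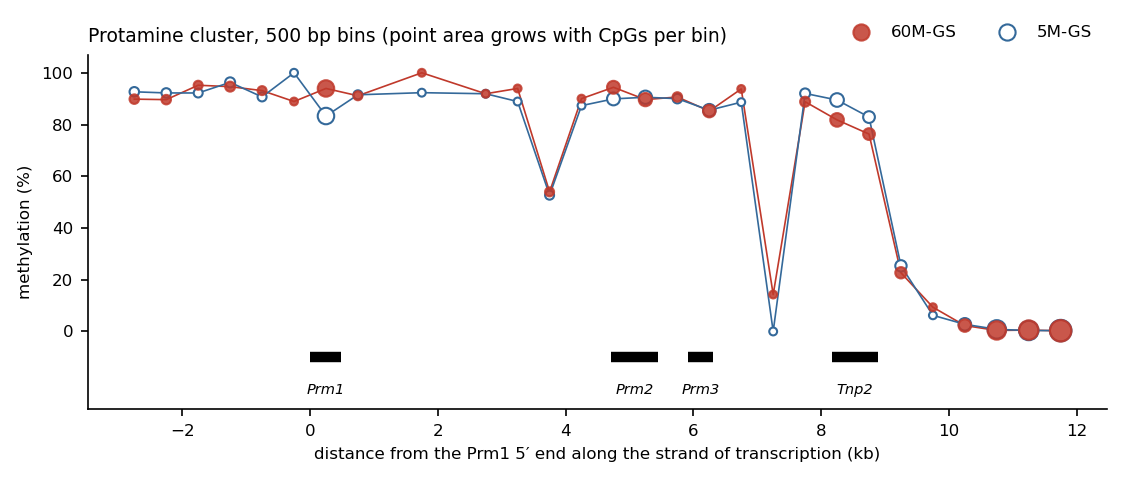
Methylation level (vertical axis, %) in 500 bp steps along the cluster of Prm1, Prm2, Prm3 and Tnp2 (horizontal axis, kb from the Prm1 5′ end in the direction of transcription), with filled points for 60M-GS, open points for 5M-GS and point area growing with the number of CpGs. Black bars mark the genes. The Prm1 body is at 93.9% in 60M-GS, against 83.3% in 5M-GS, and both lines fall to under 1% beyond 10.5 kb.

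Genes of the acrosome, the vesicle whose enzymes and membrane proteins serve the sperm at the egg coat, gave no call at ends or spans. The start windows fell into unmethylated and methylated ones. Izumo1, the sperm membrane protein that binds its egg receptor before fusion, had 0.402% of 249 calls methylated in 60M-GS, against 1.62% of 247 calls in 5M-GS at its start. Its window holds the full palindrome TGACGTCA, the site known for CREM and its relatives, at -96 to -89. The CpG inside it was methylated in 0% of 43 calls in 60M-GS, against 2.94% of 34 calls in 5M-GS. Spaca1, a membrane protein of the acrosome, was at 1.09% in 60M-GS, against 0.314% in 5M-GS, and Zpbp2, a zona pellucida binding protein, at 0.904% in 60M-GS against 0.483% in 5M-GS. Zpbp, its relative, was at 1.32% in 60M-GS against 0% of 145 calls in 5M-GS (at most 2.58% by the Wilson interval) at its listed start. The 2 kb around that start was at 4.86% in 60M-GS against 1.23% in 5M-GS. The window at the outermost annotated base of Zpbp was at 85.9% for 60M-GS and 82.9% for 5M-GS. That window also holds the start of Spata48, at 479 bp, and it is the one used for Zpbp in the counts of 5′ ends.

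Acr, Acrv1 and Spaca7 were methylated. Acr encodes acrosin, the main acrosomal protease, and its low-coordinate end was at 94.0% in 60M-GS, against 92.0% in 5M-GS. Its high-coordinate end was at 86.3% in 60M-GS against 74.2% in 5M-GS, 12.1 points apart (95% CI 7.10 to 17.0). Acrv1, an acrosomal matrix protein, had 3 usable CpGs at its 5′ end, at 87.5% in 60M-GS, against 87.0% in 5M-GS. Spaca7, another acrosomal protein, was at 92.3% in 60M-GS against 91.4% in 5M-GS at its 5′ end. Of the group, the 3′ end of Izumo1 was nearest to a call, at 59.7% in 60M-GS, against 40.2% in 5M-GS, 19.5 points apart (95% CI 15.1 to 23.9). Its window also holds the start of the neighbouring gene Rasip1, 295 bp from the end of Izumo1.

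Among the ends of tail genes the only called change was at Odf1, a main protein of the outer dense fibres that stiffen the sperm tail. Its high-coordinate end was at 78.4% of 1147 calls in 60M-GS, against 20.3% of 1563 calls in 5M-GS, 58.0 points apart (95% CI 54.8 to 61.0, adjusted p = 5.60e-206 by Fisher's exact test). Of 39 CpGs in that window that 10 or more calls covered in each library, 34 were higher in 60M-GS and 28 of them by at least 50 points. In 500 bp steps from the low-coordinate end, the stretch from 6500 to 7000 bp was at 74.5% in 60M-GS, against 15.3% in 5M-GS, and that from 7000 to 7500 bp at 77.8% for 60M-GS and 6.08% for 5M-GS. The next step, past the annotated end, was at 83.5% in 60M-GS against 90.5% in 5M-GS. The other end of the gene was at 88.4% in 60M-GS, against 89.8% in 5M-GS. Over the span (chr15:38219203-38226735) the levels were 83.4% in 60M-GS against 54.3% in 5M-GS, 29.1 points apart. On the divided calls the end kept its call.

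**Figure D4:**
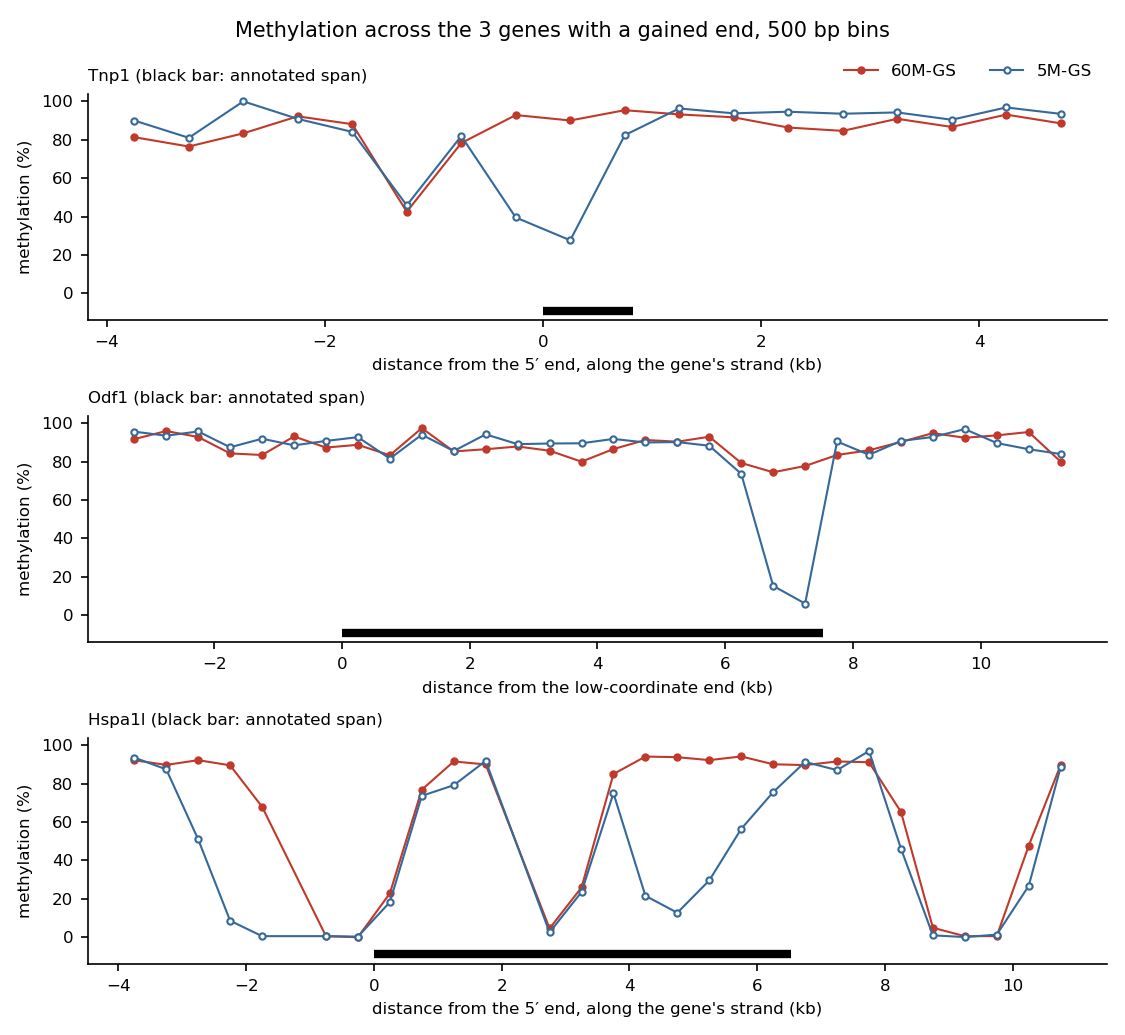
Methylation level (vertical axis, %) in 500 bp steps across Tnp1, Odf1 and Hspa1l with 4 kb around them (horizontal axis, kb from the 5′ end, or from the low-coordinate end for Odf1), with filled points for 60M-GS and open points for 5M-GS. Black bars mark the annotated spans, and lines join neighbouring steps that hold data. In each panel the 5M-GS line dips to under 30% in a short stretch where the 60M-GS line stays above 74%, and the lines run close again on either side, except at the Hspa1a side of Hspa1l.

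The remaining tail genes had no called end. Odf2, another outer dense fibre protein, is also used in centrosomes of other cells, and its 4 listed start windows were at 0.368% to 0.710% in 60M-GS and 0.299% to 0.875% in 5M-GS. Akap3 and Akap4, scaffold proteins of the fibrous sheath, had 5′ ends at 91.4% for 60M-GS and 90.8% for 5M-GS (Akap3), and at 89.7% in 60M-GS against 87.3% in 5M-GS (Akap4). Smcp, a protein of the sheath of mitochondria in the sperm midpiece, was at 86.4% in 60M-GS, against 86.7% in 5M-GS at its 5′ end. Spem1, needed for spermatids to shed their cytoplasm, was at 87.0% in 60M-GS against 88.4% in 5M-GS. The first annotated starts of Akap3, Akap4 and Smcp had no CpG in their 300-base windows.

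Tektins, filament proteins bound to the microtubules of cilia and flagella, mostly had low starts. Of the 2 listed starts of Tekt1, the upstream one was at 0.468% for 60M-GS and 0.836% for 5M-GS and the other at 13.3% in 60M-GS against 15.8% in 5M-GS. The 3 starts of Tekt2 were at 0% to 1.49% in 60M-GS, and all at 0% in 5M-GS, which for the start with the fewest calls (134) allows up to 2.79%. The start of Tekt5 was at 12.4% in 60M-GS, against 8.43% in 5M-GS. In the Tekt3 window printed above, the overall level was 20.8% of 322 calls in 60M-GS, against 11.1% of 342 calls in 5M-GS (adjusted p = 0.0144 by Fisher's exact test over start windows, under 20 points). The difference lay in its 2 outermost CpGs. The CpG at -198 was at 88.6% in 60M-GS, against 62.5% in 5M-GS, the CpG at -192 at 62.8% in 60M-GS against 8.70% in 5M-GS, and the other 10 were at 0% to 4.76% in 60M-GS and 0% to 8.33% in 5M-GS. Tekt4 had 3 CpGs at its listed start, too few to test, and the 2 kb around that start was at 12.7% in 60M-GS, against 15.0% in 5M-GS. Its outermost 5′ end was at 81.3% in 60M-GS against 76.8% in 5M-GS.

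None of the 10 tested 3′ ends of tail genes with a known strand was called, and 6 differed by under 1 point. Of the other 4, 3 were lower in 60M-GS (Akap3, Tekt1 and Tekt4) and 1 was higher (Tekt2). The 3′ end of Tekt4 was at 41.5% in 60M-GS, against 60.2% in 5M-GS, with 60M-GS minus 5M-GS at -18.7 points (95% CI -23.1 to -14.3), and with windows of 500 bp on either side it was called lost, at -27.5 points. The 3′ end of Akap3 was at 18.9% in 60M-GS, against 33.9% in 5M-GS, with 60M-GS minus 5M-GS at -15.0 points (95% CI -19.8 to -10.2). In the opposite direction, the 3′ end of Tekt2 was at 16.3% in 60M-GS against 6.53% in 5M-GS, in a window that also holds the start of its neighbour Adprhl2. With windows of 2 kb on either side, the 3′ end of Odf2 was called lost as well, at -23.6 points.

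CatSper genes encode the calcium channel of the sperm tail, with Catsper1 to Catsper4 as pore subunits and Catsperb as an auxiliary subunit. None of their 10 ends and 5 spans was called. Catsper2 had an unmethylated start, at 0.546% of 733 calls in 60M-GS, against 0.452% of 885 calls in 5M-GS. That start window also holds the start of the housekeeping gene Pdia3, which lies 696 bp from the outermost end of Catsper2. The 5′ end of Catsper3 was at 90.3% for 60M-GS and 92.2% for 5M-GS, that of Catsper4 at 83.0% in 60M-GS against 84.2% in 5M-GS and that of Catsperb at 89.0% in 60M-GS against 88.9% in 5M-GS. Catsper1 was at 91.0% for 60M-GS and 90.5% for 5M-GS at its low-coordinate end and at 92.2% in 60M-GS against 91.2% in 5M-GS at its high-coordinate end. The 3′ end of Catsper3 was the lowest of the methylated ends in this group, at 57.6% in 60M-GS, against 64.3% in 5M-GS, with 60M-GS minus 5M-GS at -6.72 points (95% CI -12.4 to -0.996).

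The Tssk genes encode kinases of spermatids, and their starts were methylated in Tssk1 and Tssk2 and unmethylated in Tssk3 and Tssk6, in both libraries. Tssk1 and Tssk2 are neighbours on chromosome 16. The 6 CpGs of the Tssk2 start were at 89.7% of 145 calls in 60M-GS, against 89.6% of 163 calls in 5M-GS, and the 2 CpGs of the Tssk1 start were at 82.0% in 60M-GS against 88.2% in 5M-GS. Tssk3 was at 1.98% of 253 calls in 60M-GS, against 2.67% of 262 calls in 5M-GS at its start, and Tssk6 at 1.15% for 60M-GS and 0.810% for 5M-GS. The whole span of Tssk6 was at 0.349% in 60M-GS against 0.769% in 5M-GS, the lowest level of the 36 spans. Tssk3 was methylated beyond its start, with a 3′ end at 84.1% for 60M-GS and 86.1% for 5M-GS and a span at 27.5% in 60M-GS against 29.4% in 5M-GS. The windows of Tssk3 and Tssk6 also hold the starts of other genes, Fam229a at 540 bp and Ndufa13 at 164 bp. No kinase end or span was called.

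Hspa1l, the testis form of the heat shock protein Hsp70, was gained in its body and not at its start. Its annotated start lies 547 bp from that of its neighbour Hspa1a. The start window was at 0% of 163 calls in 60M-GS, which allows up to 2.30% by the 95% Wilson interval, and at 0.391% of 256 calls in 5M-GS. From 4000 to 4500 bp into the gene the level was 94.1% in 60M-GS, against 21.6% in 5M-GS, from 4500 to 5000 bp 93.8% in 60M-GS against 12.7% in 5M-GS, and from 5000 to 5500 bp 92.2% for 60M-GS and 29.6% for 5M-GS. The step from 5500 to 6000 bp was at 94.2% in 60M-GS against 56.4% in 5M-GS, and from 6500 to 7000 bp the libraries were close, at 89.7% in 60M-GS against 91.3% in 5M-GS. Over the span (chr17:34972703-34979228) the levels were 82.6% in 60M-GS, against 38.9% in 5M-GS, 43.7 points apart (95% CI 41.7 to 45.7). The 3′ end window was at 92.8% for 60M-GS and 66.2% for 5M-GS, 26.6 points apart (95% CI 23.8 to 29.4, adjusted p = 6.01e-72 by Fisher's exact test). By the same exact test that call ended on the divided calls (adjusted p = 1) and with windows of 500 bp on either side (8.25 points).

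Crisp2, Dnajb3 and Gsg1 gave no call. Crisp2 encodes a cysteine-rich protein of the acrosome and tail, and its start was at 0% of 78 calls in 60M-GS and 0% of 81 calls in 5M-GS, which allow levels up to 4.69% and 4.53%. Dnajb3, a co-chaperone gene of spermatids that lies inside the Ugt1a locus, was at 0% in 60M-GS against 0.502% in 5M-GS at its start and at 5.68% in 60M-GS against 3.31% in 5M-GS over its 5′ end. Gsg1 had 2 annotated starts, both methylated, at 87.9% in 60M-GS, against 86.4% in 5M-GS for 1 of them and 68.8% for 60M-GS and 67.0% for 5M-GS for the outermost.

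Over the whole spans, 3 of 36 genes were gained (Tnp1, Odf1 and Hspa1l), where 2.94% of 20627 tested protein-coding spans were, and 0 were lost, where 0.0194% were. No test was made of this share, and on the divided calls 1 of the 3 was called. Below the 20 points, the largest differences were those of Prm1 (10.7 points) and of Akap3, whose span was at 81.7% in 60M-GS against 71.5% in 5M-GS. Some changes covered less than a gene, so spans were also read in tiles of 1 kb, a unit added after the values had been seen. Of 560 tested tiles in the sperm genes, 18 (3.21%) were gained, with a background of 1.76% in protein-coding spans, and 4 (0.714%) were lost, with a background of 0.374%. Among tiles with at least 20 CpGs, 9 of 62 (14.5%) were gained, with a background of 6.98%. Over all tested tiles of the genome, inside and outside genes, the shares were 3.48% gained and 0.475% lost. Of all tiles with at least 20 CpGs, 10.3% were gained. No test was made of these shares, and tiles of 1 gene are not independent.

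The gained tiles were spread over 12 genes. The tail and sheath genes held 190 of the 560 tested tiles, of which 10 (5.26%) were gained. The background of gained tiles was 1.76% in protein-coding spans and 3.48% over all tiles. All 4 lost tiles of the sperm genes were also in tail and sheath genes (Odf2, Tekt1 and Tekt4). The background of lost tiles was 0.374% in protein-coding spans and 0.475% over all tiles. This tally by role was added after the values had been seen, and no test was made of these shares. Akap3 had a tile starting 11903 bp from its 5′ end at 87.8% in 60M-GS, against 35.6% in 5M-GS, 52.2 points apart. In Tekt3 a tile starting 25342 bp from the 5′ end was at 89.7% in 60M-GS against 16.4% in 5M-GS, and another starting 8342 bp from it at 88.6% for 60M-GS and 50.9% for 5M-GS. Tekt5 had a tile starting 9455 bp from its 5′ end at 76.0% in 60M-GS, against 11.1% in 5M-GS. In Tekt4 a tile starting 1452 bp from the outermost 5′ end was at 71.0% in 60M-GS against 22.4% in 5M-GS, while a tile at its 3′ end was lost, at 23.8% in 60M-GS against 47.9% in 5M-GS. On the divided calls 6 gained tiles kept the call, 1 each in Akap3, Hspa1l, Odf1, Tekt3, Tekt5 and Tnp1, and 0 lost tiles did. Thus Akap3, Tekt3 and Tekt5, whose ends showed no gain, held short gained stretches inside the gene, and 23 genes held no called tile.

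**Figure D5:**
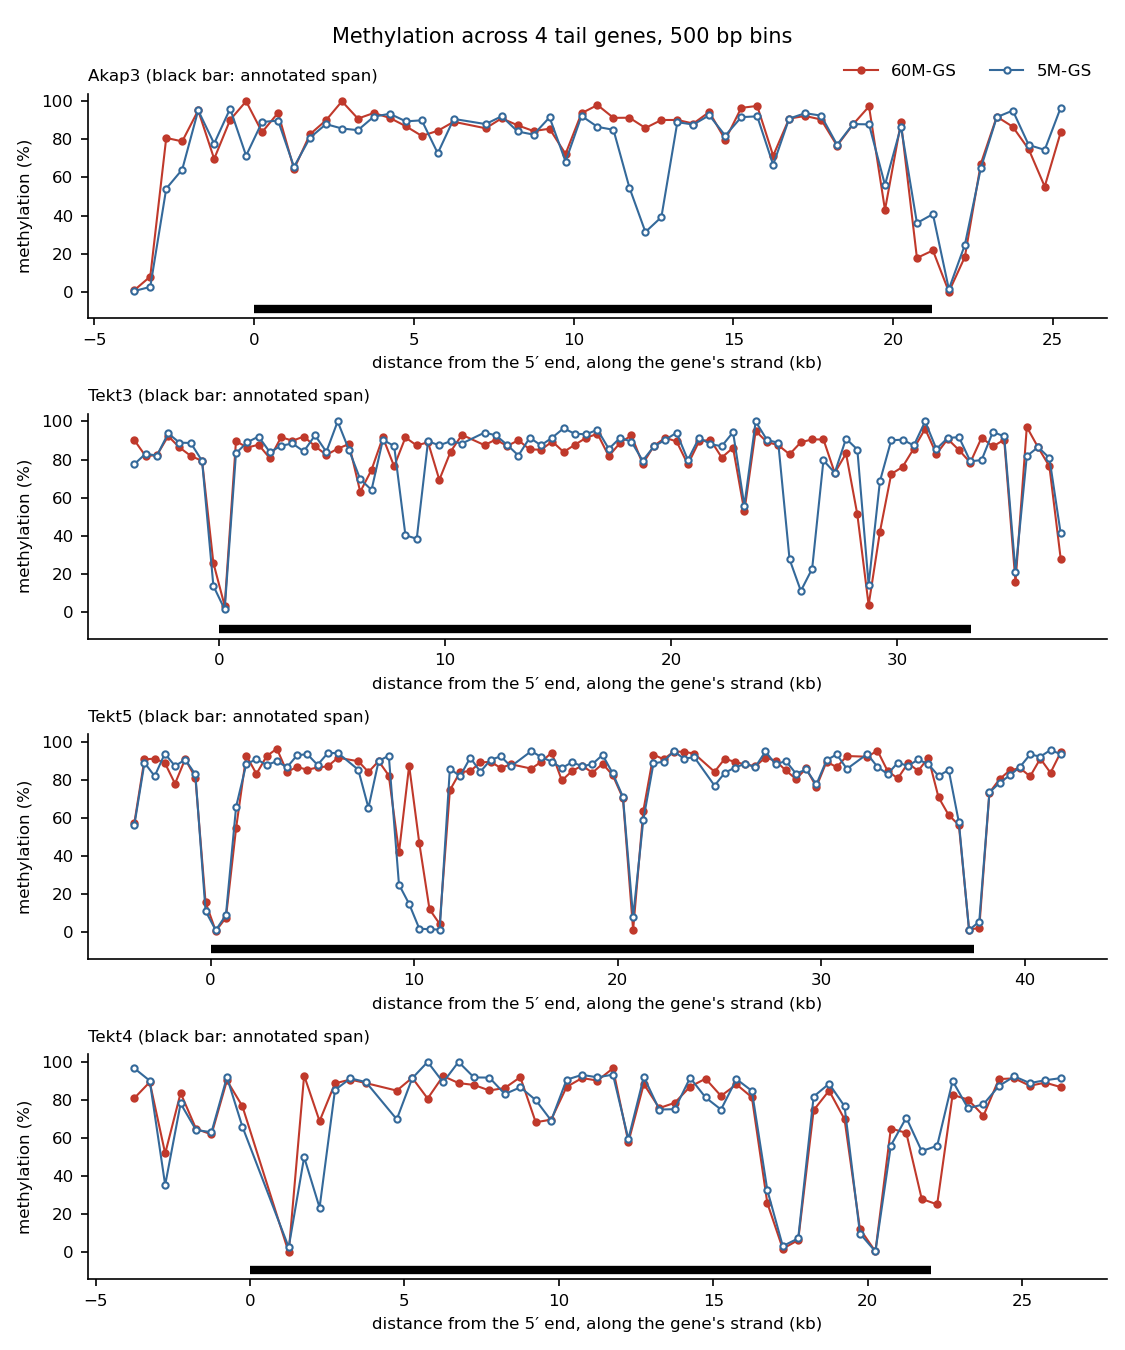
Methylation level (vertical axis, %) in 500 bp steps across Akap3, Tekt3, Tekt5 and Tekt4 with 4 kb around them (horizontal axis, kb from the outermost 5′ end along the strand of the gene), with filled points for 60M-GS and open points for 5M-GS. Black bars mark the annotated spans, and lines join neighbouring steps that hold data. The 5M-GS line dips inside Akap3 (to 31.4%, with 60M-GS at 86.0%), inside Tekt3 (to 11.1%, with 60M-GS at 89.1%) and inside Tekt5, where the 60M-GS line stays higher, and at the 3′ end of Tekt4 the 60M-GS line is the lower one.

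Motifs of the start windows were counted as a description. The palindrome TGACGTCA was in 2.26% of 21019 protein-coding start windows on GRCm38.p6 and in 1 of the 33 sperm genes with a window, Izumo1. Its 5-letter core, TGACG on either strand, including the copies within the palindrome, was in 23.8% of all windows and in 12 of 42 windows of the sperm genes, which belong to Catsper2, Dnajb3, Hspa1l, Izumo1, Odf2, Spaca1, Tekt1, Tssk6 and Zpbp2. In 8 of these 9 genes every CpG within a core copy was at 0% in 60M-GS and at most 2.94% in 5M-GS. The exception was Tekt1, with 1 copy at 28.6% of 42 calls in 60M-GS, against 40.9% of 22 calls in 5M-GS. Calls were few at the core of Tssk6 (5 in 60M-GS, 7 in 5M-GS) and of Catsper2 (9 in 60M-GS, 5 in 5M-GS). The 0% at these cores therefore bounds the level only loosely. The letters TATAAA, on either strand, were in 12.7% of all windows and in those of Crisp2, Gsg1, Prm2 and Spaca7. A match is not a bound site, and the starts with a core were CpG-holding by construction, since the core contains a CpG.

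A further list of spermiogenesis genes was read in the same way, with 66 of 68 symbols found. Of their 130 tested ends, 8 were gained and 0 were lost, against the background of 3.81% and 0.219%. The gained 5′ ends were those of Acrbp, the acrosin-binding protein (73.2% in 60M-GS, against 13.5% in 5M-GS), Slc9c1, a sodium-proton exchanger of the sperm tail (73.3% for 60M-GS and 25.0% for 5M-GS), and Pgk2, the phosphoglycerate kinase of sperm glycolysis (75.2% in 60M-GS against 32.0% in 5M-GS). They were joined by Dcst1, a sperm membrane protein needed for fertilization (87.8% in 60M-GS against 57.3% in 5M-GS), Catspere1, an auxiliary CatSper subunit (53.7% for 60M-GS and 26.2% for 5M-GS), and Sox30, a transcription factor of spermatids (62.5% in 60M-GS against 35.5% in 5M-GS). The gained 3′ ends were those of Zp3r, an acrosomal matrix protein (68.4% in 60M-GS against 31.8% in 5M-GS), and Spaca6, a sperm protein of egg fusion (78.6% for 60M-GS and 55.5% for 5M-GS). Among the 66 tested spans of this list, that of Pgk2 was gained, at 90.1% in 60M-GS, against 46.8% in 5M-GS. Of all protein-coding spans, 2.94% were gained. On the divided calls 1 of the 8 ends was called. Of the 55 tested 5′ ends of this list 6 were gained, and of the 32 among the 36 genes above 1 was. The share over all protein-coding 5′ ends was 3.84%. Whether the lists differ was not tested.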

How the data were processed

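DNA methylation was measured in 60M-GS and 5M-GS cells, with 2 replicates of each pooled by the authors in 1 table per culture age. Per the labels' protocols, the libraries were PBAT libraries (adaptors added after the bisulfite step). Bismark 0.10.0 and the build mm10 are named in the submitters' processing notes. Each table lists, as deposited, the count of methylated and the count of unmethylated calls of each CpG, with no further normalization. The percent of methylated calls was computed by the authors from these counts and served here only to check them. How the authors filtered reads, removed duplicates or merged strands is not stated in the sources used here. Of 326010 CpGs in the RefSeq start windows, 98.2% were listed at the expected position.

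Calls were summed over CpGs with 5 or more calls in each library, and regions of 4 or more such CpGs were tested as described in the results, with the adjustment taken over every protein-coding region of a kind. Intervals are 95% Wilson intervals for levels and Newcombe intervals for differences. Python 3.11.15, numpy 2.4.6, pandas 2.3.3 and scipy 1.17.1 were used, and the tests were tried on simulated data. Gene positions, strands and start sequences came from RefSeq (GRCm38.p6). The 36 member genes, the lists and the tests were chosen with earlier results of these data known. All 36 genes are named, with genes of the second spermiogenesis list that passed the call and genes overlapping an end. Alternatives changed the call minimum, CpG minimum, window, threshold, adjustment and weighting, and the start windows and tiles were added after the values had been seen.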

Additional observations from a re-analysis of the deposited data

How the results depend on the processing

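Dividing the calls of a region by its number of CpGs left 1 gained end of the 36 sperm genes (Odf1), 1 gained span of them, 1 gained end of the second list, 6 gained tiles of the sperm genes and 0 lost tiles, while all protein-coding ends fell to 288 gained and 3 lost. Over all ends this setting thus removes most calls. Of 803536 tested tiles in protein-coding spans, 3103 were gained and 120 lost on the divided calls. The 2 ends of Tnp1 then had adjusted p of 0.122 and 0.139 by Fisher's exact test. At a threshold of 10 points, 5 sperm gene spans were gained, 6 sperm gene ends were gained and 2 lost, and 9 ends of the second list were gained and 2 lost, beside 2697 gained and 573 lost among all ends. At 30 points, 5 ends of the second list were gained. Windows of 500 bp on either side gave 2 gained and 1 lost sperm gene end, with the 3′ ends of Tnp1 (16.2 points) and Hspa1l (8.25 points) no longer called. Windows of 2 kb gave 1 lost sperm gene end and 1 lost end of the second list. With 5′ ends only, 1 sperm gene end was gained. Counts over all protein-coding regions are given here only for ends and tiles on the divided calls and for ends at 10 points. The other counts above stand without such a background and were not compared with one. The sign turned for the 5′ end of Dnajb3 at 500 bp (-0.0335 points) and for the 3′ end of Catsper3 at 2 kb (0.428 points), and the cause was not tested. Of 552 alternative values of single sperm gene ends, 539 were labelled the same as the main value. For most settings this label meant that the end kept its side of the threshold. A turn of sign counted as a change only where the main interval excluded 0 or both settings gave a call. For the mean of CpG levels the label meant a value inside the main interval. No paired analysis was possible because the replicates of each culture age are pooled in 1 table, and for the same reason no replicate could be left out. With 1 pooled library per age, depth limits single CpGs most, at a median of 22 calls in 60M-GS and 21 in 5M-GS.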

Other observations

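Short changed stretches were also present in genes without a called end, in tiles of 1 kb tested over the whole genome. Odf2 had 1 lost tile starting 40987 bp from its outermost 5′ end, at 11.4% in 60M-GS against 50.5% in 5M-GS. Tekt1 had a gained tile starting 7442 bp from its outermost 5′ end (64.4% in 60M-GS against 40.6% in 5M-GS) and lost tiles starting 12442 bp (38.9% in 60M-GS against 60.7% in 5M-GS) and 13442 bp from it (49.7% in 60M-GS against 70.4% in 5M-GS). None of these was called on the divided calls. Zpbp, the longest gene among those with gained tiles, had 80 tested tiles, of which 3 were gained.

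The profile before Hspa1l ran into its neighbour Hspa1a (chr17:34969359-34972156), which encodes an inducible Hsp70. Inside Hspa1a, the stretch from 2500 to 2000 bp before the Hspa1l start was at 89.5% in 60M-GS against 8.58% in 5M-GS. The next 500 bp, also inside Hspa1a, were at 68.0% in 60M-GS against 0.546% in 5M-GS. From 1000 to 500 bp before that start the levels were 0.531% in 60M-GS against 0.547% in 5M-GS. This pattern was noticed in the profile and no test was made of it.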
